A study of Mus musculus with 8 samples.

Results

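Genes that drive cells through G2 and mitosis were examined in pro-B cells without menin, taking every probe set whose gene symbol was 1 of 40 listed mitotic genes. The platform annotation paired 39 of them with 89 of the 45037 probe sets of the array. The remaining gene, Ccnb1, was on no probe set with its symbol alone. All 89 carried the Entrez identifier of the RefSeq gene of the same symbol. Fraction B pro-B cells had been sorted from bone marrow as B220+ CD43+ HSA+ BP-1- cells, and each mouse gave 1 expression array. The menin-deficient group was 4 Rag1-cre;MenF/F mice, which carry a Cre named for Rag1, a recombinase gene of developing lymphocytes, and floxed Men1. The control group was 4 MenF/F mice, with the same floxed alleles and no Cre. The mice were 2 to 3 weeks old by the sample labels and 3 weeks old by the series' design text. Cre was present in every menin-deficient mouse and in no control, so what it does by itself cannot be told apart from the loss of menin. Each cell sample was a whole sorted population, so fewer dividing cells and less mitotic RNA in each dividing cell cannot be told apart either.

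As background, a cell enters mitosis when cyclin-dependent kinase 1 (Cdk1), bound to A- and B-type cyclins, is freed of its inhibitory phosphates by Cdc25 phosphatases. Polo-like and Aurora kinases then build the spindle, the spindle checkpoint holds the anaphase-promoting complex in check until chromosomes are attached, and Cdc20 starts anaphase by turning that complex on. Transcripts of these genes accumulate in G2 and M phase under the MuvB, B-Myb and FoxM1 factors, so in a mixed population their level follows how many cells divide. Pro-B cells of mouse bone marrow divide in response to interleukin 7.

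Many of the members share promoter letters that the choice of genes did not use. The 6-base element TTTGAA, the core of the cell cycle genes homology region that MuvB complexes bind, and the CCAAT box bound by NF-Y were searched on both strands, with overlaps allowed, from 250 bases before to 50 bases after each annotated start (RefSeq, GRCm38.p6). Of 37 such windows of 34 members, 29 held TTTGAA (78.4%), against 17.9% of all 32851 windows, and 32 held CCAAT (86.5%), against 37.4%. Both elements stood in 27 member windows (73.0%), against 6.95% of all windows. In 149 windows of 127 other genes of G2 and mitosis, counted further below, TTTGAA stood in 32.2%, CCAAT in 51.7% and both in 19.5%. Windows of Nusap1, Mad2l1 and Birc5 held neither. Of the 36 TTTGAA matches in members, 26 (72.2%) began no more than 60 bases before the start or after it, against 28.2% of the matches in all windows. Ect2, Prc1 and Bub3 have more than 1 window, and these overlap, so some of their matches are counted again. The windows differ in base composition, with a median GC content of 58.7% in members, 61.0% in those other genes and 52.7% in all. The 5 windows printed here are those of Cdk1 and of 4 genes with a probe set that differed between the groups, shown so that both elements can be seen in place. They begin at or near the 5′ end of the annotated gene, that of Ect2 at a start 375 bases inside it. Cdc25c is named only, and the 1 window of Kif2c is not shown because it belongs to a start 3852 bases inside the gene, the only one of the 37 over 1000 bases inside. That window is still counted in the shares above. Sequences run 5′ to 3′ along the gene, and capitals mark TTTGAA or CCAAT in either orientation.
Cdk1, chr10:69352863-69353162, minus strand: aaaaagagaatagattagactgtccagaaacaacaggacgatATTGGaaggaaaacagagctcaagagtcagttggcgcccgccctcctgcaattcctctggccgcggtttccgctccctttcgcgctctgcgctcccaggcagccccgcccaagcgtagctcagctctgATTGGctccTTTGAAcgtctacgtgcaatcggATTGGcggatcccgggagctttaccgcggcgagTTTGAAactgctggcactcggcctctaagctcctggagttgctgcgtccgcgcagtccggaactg
Ube2c, chr2:164769679-164769978, plus strand: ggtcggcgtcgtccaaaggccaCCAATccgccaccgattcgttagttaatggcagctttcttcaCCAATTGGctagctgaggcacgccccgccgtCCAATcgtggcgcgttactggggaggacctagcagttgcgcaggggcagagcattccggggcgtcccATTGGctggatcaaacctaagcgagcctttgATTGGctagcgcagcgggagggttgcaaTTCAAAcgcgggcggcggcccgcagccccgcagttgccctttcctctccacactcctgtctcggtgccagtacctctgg
Cdc20, chr4:118437294-118437593, minus strand: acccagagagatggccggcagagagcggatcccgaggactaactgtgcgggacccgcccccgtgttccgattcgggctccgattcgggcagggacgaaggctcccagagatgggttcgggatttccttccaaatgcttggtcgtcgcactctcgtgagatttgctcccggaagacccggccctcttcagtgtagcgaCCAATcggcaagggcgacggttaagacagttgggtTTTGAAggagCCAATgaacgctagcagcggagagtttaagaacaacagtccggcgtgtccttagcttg
Nek2, chr1:191821223-191821522, plus strand: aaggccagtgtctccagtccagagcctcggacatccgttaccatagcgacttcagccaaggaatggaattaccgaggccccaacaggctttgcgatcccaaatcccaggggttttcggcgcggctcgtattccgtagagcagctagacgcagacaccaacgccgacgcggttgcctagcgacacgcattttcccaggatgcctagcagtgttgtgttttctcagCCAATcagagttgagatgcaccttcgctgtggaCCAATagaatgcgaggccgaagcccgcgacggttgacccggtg
Ect2, chr3:27153829-27154128, minus strand: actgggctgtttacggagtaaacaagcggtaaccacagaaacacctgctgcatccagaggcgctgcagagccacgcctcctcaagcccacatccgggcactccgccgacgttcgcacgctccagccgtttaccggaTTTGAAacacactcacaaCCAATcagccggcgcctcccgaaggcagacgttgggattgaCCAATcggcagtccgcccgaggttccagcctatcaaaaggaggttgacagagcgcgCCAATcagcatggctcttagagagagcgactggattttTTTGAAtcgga
In Cdk1 and Cdc20 a TTTGAA lay just upstream of the start, with at least 1 CCAAT box, in either orientation, before it. Ube2c held 6 CCAAT boxes and Ect2 held 3. Nek2 held 2 CCAAT boxes and no TTTGAA. A match is a description of the letters and shows no binding.

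Menin's own transcript was lower in the menin-deficient arrays. Its brightest probe set read 7.85, 8.24, 8.50 and 8.03 on the menin-deficient arrays, against 9.59, 9.19, 9.58 and 9.81 on the control arrays (log2 signal, replicates 1 to 4), a difference of -1.39 (SE 0.18, limma adjusted p = 0.00617). The sources used here do not say where its probes lie relative to the deleted part. Of 11 listed pro-B cell markers 10 were measured, and all 10 had a mean of at least 9.24 in the menin-deficient arrays and 9.32 in the control arrays. Of these Dntt, the terminal transferase, was higher (0.35, adjusted p = 0.00681) and Rag1 lower (-0.28, adjusted p = 0.0434). Of the 4 genes of the sorting markers 0 were called by limma. Enpep, which encodes BP-1, averaged 11.69 in menin-deficient and 11.40 in control arrays, although the cells were sorted as BP-1-. It was lowest on menin-deficient replicate 3 (10.44) and control replicate 2 (10.63). Of 5 tested markers of later B cells Il2ra was lower (-0.87, adjusted p = 0.0289), and that list summed to 22867 to 34373 on menin-deficient and 26469 to 39215 on control arrays. Of other cell types, 4 of 5 tested T cell markers rose (Thy1, Lat, Cd5, Cd3g), and Cd8a was not called (adjusted p = 0.281). Cd3e stood at the lowest value on all arrays and Cd3d and Cd4 on 7 of 8, and these were not tested. The T cell list summed to 2571 to 3505 linear signal units on the menin-deficient arrays and 641 to 1031 on the control arrays. The NK cell list, with 2 of 5 markers higher, summed to 3082 to 6597 and 1842 to 2851 in the same order. The plasmacytoid dendritic cell list, with 2 of 5 higher, summed to 1095 to 1734 and 539 to 651. Of 4 tested erythroid markers Car1 rose, with list sums of 45483 to 50401 and 43456 to 44569 that were nearly all Tfrc, a gene of dividing cells in general. Without Tfrc they were 793 to 1250 and 576 to 1019, and Hba-a1 stood at the lowest value throughout. Of 8 myeloid markers 0 were called by limma (23515 to 42873 and 18946 to 26796). The part of such cells, or of B-cell stage, in the mitotic gene levels was not tested.

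Most mitotic genes were expressed at a similar level with and without menin. Of the 89 member probe sets 82 were bright enough to test, and they covered all 39 genes. At an adjusted p under 0.05, 7 of the 82 (8.54%) differed, 2 higher and 5 lower in menin-deficient cells, against 14.2% of all 26790 probe sets tested, of which 9.34% were higher and 4.87% lower. The groups did not overlap for 12 of the 82, against 21.4% of all tested probe sets. By the brightest probe set of each gene 5 of 39 members were called, 1 higher and 4 lower, against 21.3% of all genes (16.2% higher and 5.17% lower). In that fit over genes Ube2c was higher, and Kif11, Ect2 and the _x_at probe sets of Kif2c and Cdc20 were lower. The brightest probe sets of Nek2 and Cdc25c, an _s_at and an _x_at, were not called. Among the 7 probe sets called in the fit over all probe sets, those of Cdc25c and Ube2c rose, and Nek2, Ect2, Kif2c (2 probe sets) and 1 probe set of Cdc20 fell. The median difference of the 82 was 0.03 on the log2 scale, against 0.04 for all tested probe sets. The 95% interval of the difference lay wholly within a 2-fold change in either direction for 71 of the 82 probe sets and within a 1.5-fold change for 55. Leaving out control replicate 2 or menin-deficient replicate 4 brought the 7 down to 4, the fewest with any 1 array left out. In a fit with the replicate number as a block only the dim Kif2c probe set was called.

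**Figure D1:**
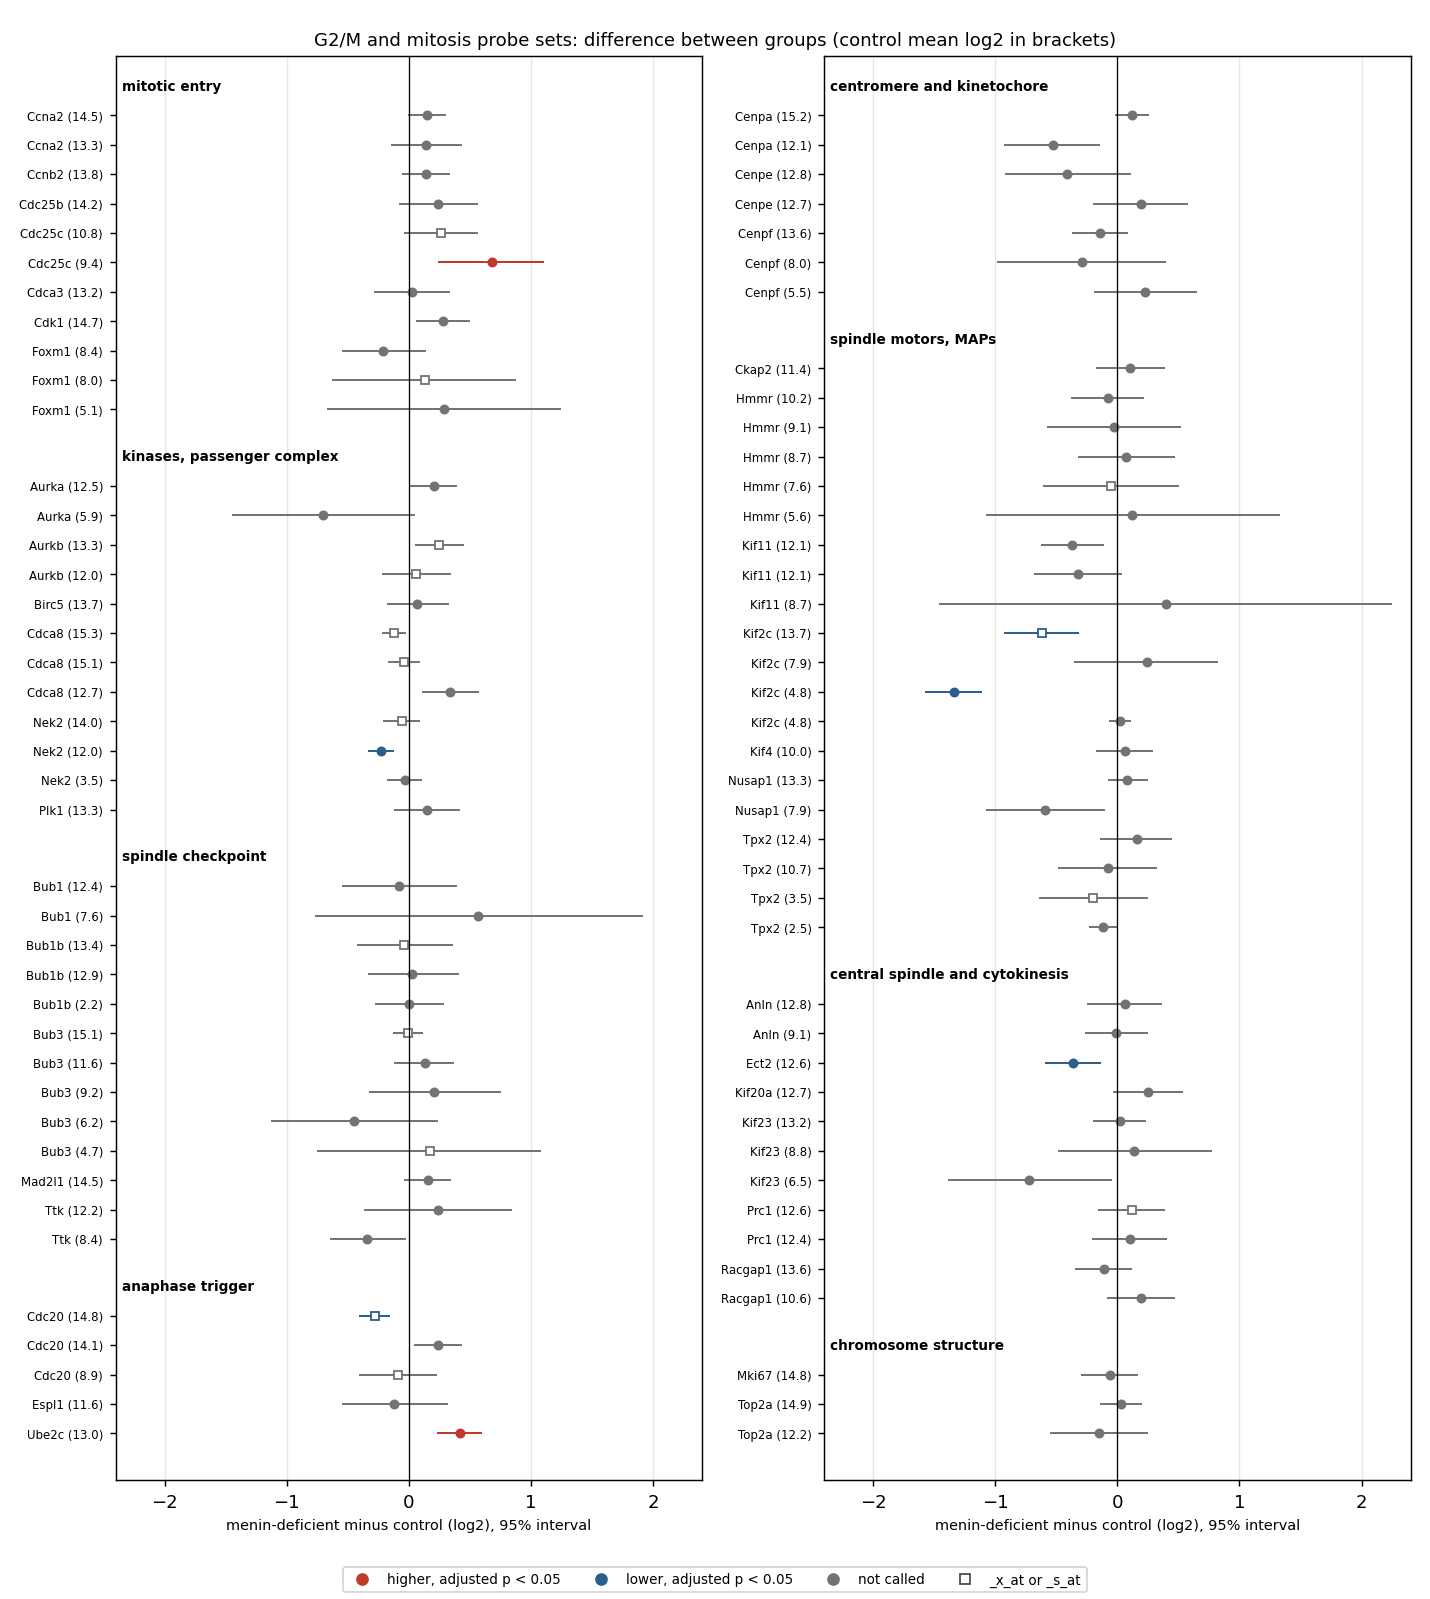
Difference between menin-deficient and control arrays (log2, horizontal axis) with its 95% interval for each of the 82 tested probe sets of 39 mitotic genes, grouped by role, with the control mean in brackets. Filled circles are plain probe sets and open squares are _x_at or _s_at probe sets, red marks the 2 called higher and blue the 5 called lower, and most bright probe sets sit close to 0.

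Probe sets ending in _x_at or _s_at, whose probes can match several transcripts, are given apart from the rest, called plain here. Of 66 tested plain probe sets 2 were higher and 3 lower (7.58%), against 13.8% of all plain probe sets (9.63% higher and 4.15% lower). Of 16 tested _x_at and _s_at probe sets 0 were higher and 2 lower (12.5%), against 17.3% of all such probe sets (7.26% higher and 10.1% lower). The plain count was 3 when control replicate 1 or 2, or menin-deficient replicate 3 or 4, was left out. Taking the brightest plain probe set for each of 38 members, 28 differences were above 0, with a median of 0.10, and 4 were called. Plain probe sets with a mean of at least 12 had a median difference of 0.11 over the whole array and 0.12 among the 31 of the members. Centring each array on its median gene removed 0.13 from every difference, and 17 of the 38 differences were then above 0 and 10 of 82 probe sets were called, all of them lower.

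The genes of mitotic entry had levels that were close between the groups except for Cdc25c, a phosphatase that activates Cdk1. Its plain probe set read 10.12, 10.32, 10.17 and 9.88 on menin-deficient arrays, against 9.12, 9.18, 9.72 and 9.75 on control arrays. Every menin-deficient array was above every control array, and control replicates 1 and 2 lay below the other controls. The difference of 0.68 (1.60-fold, SE 0.18, adjusted p = 0.0492) only just passed the threshold. It no longer passed when control replicate 1 or 2 or any menin-deficient array was left out (adjusted p = 0.0641 to 0.128), and its _x_at probe set differed by 0.26 (adjusted p = 0.21).

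Cdk1 itself averaged 15.00 ± 0.10 in menin-deficient and 14.72 ± 0.15 in control arrays (SD, n = 4 each), a difference of 0.28 that did not pass (limma adjusted p = 0.0841). Ccna2, encoding cyclin A2, differed by 0.15 and Ccnb2, encoding cyclin B2, by 0.14. Cdc25b, the phosphatase that acts at the onset of mitosis, differed by 0.24 and Cdca3, a trigger of mitotic entry, by 0.03. Foxm1, the transcription factor of the G2/M programme, differed by -0.21 on its brightest plain probe set (95% interval -0.54 to 0.13) and by 0.29 and 0.13 on its other probe sets. Of the 11 tested probe sets of this group, 1 was called (9.09%), against 14.2% of all tested probe sets.

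Among the mitotic kinases and the chromosomal passenger complex, 1 plain probe set of Nek2 fell by a small amount. Nek2 is a kinase that separates centrosomes. That probe set read 11.81, 11.81, 11.76 and 11.71 on menin-deficient arrays and 11.92, 12.03, 12.03 and 12.02 on control arrays. The groups did not overlap although the difference was only -0.23 (1.17-fold, SE 0.04, adjusted p = 0.0177), and the call was kept with any array left out (adjusted p = 0.0257 to 0.0435). The call was lost with a 60th percentile filter (limma adjusted p = 0.0639) and with the replicate number as a block (limma adjusted p = 0.09). The brighter _s_at probe set of Nek2 differed by -0.06 (adjusted p = 0.53) and a dim plain one by -0.03 (adjusted p = 0.752). The mean of its probe sets differed by -0.11 (adjusted p = 0.129).

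Cdca8, encoding the passenger protein borealin, read 13.13, 13.19, 13.09 and 12.90 on menin-deficient arrays and 12.67, 12.79, 12.55 and 12.91 on control arrays on its plain probe set. The groups overlapped by the highest control array alone, and the difference of 0.34 (SE 0.10) did not pass (adjusted p = 0.0561). Its _s_at probe sets differed by -0.12 and -0.04. Plk1, the polo-like kinase of mitosis, differed by 0.15 (95% interval -0.11 to 0.41), Aurka, encoding the spindle-pole kinase Aurora A, by 0.21 on its brightest plain probe set and -0.70 on a dim one (adjusted p = 0.185), and Birc5, encoding the passenger protein survivin, by 0.07. Aurkb, encoding the passenger kinase Aurora B, was measured on _x_at and _s_at probe sets alone, which differed by 0.25 and 0.06. Of the 12 tested probe sets of this group, 1 was called (8.33%), against 14.2% of all tested probe sets.

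No probe set of the spindle checkpoint was called among 13 tested, against 14.2% of all tested probe sets. So few probe sets do not set the group apart from that share. Ttk, the checkpoint kinase Mps1, had the largest difference of the group on its brightest plain probe set. It read 12.48, 12.68, 12.24 and 12.53 on menin-deficient arrays and 12.13, 11.56, 12.62 and 12.66 on control arrays. The controls spread far more widely than the menin-deficient arrays, and the difference of 0.24 (SE 0.25, adjusted p = 0.569) was within that spread. Bub1, a kinase that recruits checkpoint proteins to the kinetochore, differed by -0.08, Bub1b, encoding the inhibitor BubR1, by 0.03, Bub3, their shared partner, by 0.13 and Mad2l1, encoding the Cdc20 inhibitor Mad2, by 0.16. Dimmer probe sets of Bub1 and Ttk differed by 0.57 (95% interval -0.76 to 1.91) and -0.34 (-0.64 to -0.03), and neither passed.

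Ube2c, which encodes the ubiquitin-conjugating enzyme of the anaphase-promoting complex, rose. It read 13.36, 13.64, 13.52 and 13.33 on menin-deficient arrays, against 13.01, 13.03, 13.02 and 13.09 on control arrays. The control arrays were nearly alike and every menin-deficient array lay above them. The difference was 0.42 (1.34-fold, SE 0.07, 95% interval 0.24 to 0.59, adjusted p = 0.0148), and the call was kept with any array left out (adjusted p = 0.0202 to 0.0453). With each array centred on its median gene the difference was 0.29 (adjusted p = 0.051). Espl1, encoding separase, the protease that cuts cohesin at anaphase, differed by -0.12 (adjusted p = 0.705).

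The centromere and kinetochore genes had no call among 7 tested probe sets, against 14.2% of all tested probe sets. That number is too small to set the group apart. Cenpe, a kinetochore motor that carries chromosomes to the spindle equator, read 12.75, 13.12, 13.05 and 12.55 on menin-deficient arrays and 12.53, 12.44, 12.87 and 12.85 on control arrays. The groups overlapped, and the difference was 0.19 (SE 0.16, adjusted p = 0.471). Its other probe set differed by -0.41 (adjusted p = 0.25). Cenpa, the histone variant of centromeres, differed by 0.12 on its brightest probe set and by -0.53 on a dimmer one (adjusted p = 0.0732) whose groups did not overlap. Cenpf, a large kinetochore protein, differed by -0.14 on its brightest probe set and by -0.29 and 0.23 on dimmer ones.

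Among the spindle motors and microtubule-associated proteins, the calls were both on Kif2c and are described with its other probe sets. Kif11, the motor Eg5 that pushes spindle poles apart, read 11.69, 11.99, 11.64 and 11.62 on menin-deficient arrays and 12.09, 12.12, 12.28 and 11.94 on control arrays. Only menin-deficient replicate 2 reached into the control range, and the difference of -0.37 (SE 0.11) did not pass (adjusted p = 0.0613). It passed in the fit of the brightest probe set of each gene (adjusted p = 0.0469), without menin-deficient replicate 2 (adjusted p = 0.0344) and after centring on the median gene (-0.50, adjusted p = 0.0253). Its second bright probe set differed by -0.32 and a dimmer one by 0.40, with a wide interval. Tpx2, which activates Aurora A on the spindle, differed by 0.16, Nusap1, a spindle bundling protein, by 0.08 on its brightest plain probe set and by -0.59 on a dimmer one whose groups did not overlap (adjusted p = 0.104). On their brightest plain probe sets Ckap2, a microtubule-associated protein, differed by 0.10, Kif4, a chromosome-bound motor, by 0.06 and Hmmr, a spindle assembly factor, by -0.08.

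In the central spindle and cytokinesis group, Ect2 was the gene called among 6. Its call was 1 of 11 tested probe sets (9.09%), against 14.2% of all tested probe sets. Ect2 is the exchange factor that activates RhoA to form the cleavage furrow. It read 12.46, 12.07, 12.14 and 12.18 on menin-deficient arrays, against 12.65, 12.59, 12.59 and 12.45 on control arrays. Menin-deficient replicate 1 met the lowest control array and the other menin-deficient arrays lay below all controls. The difference was -0.36 (1.28-fold, SE 0.09, adjusted p = 0.0452). The call was lost when any 1 of 7 arrays was left out, all but menin-deficient replicate 1 (adjusted p = 0.058 to 0.113). Its partner Racgap1 differed by -0.11 on its brightest probe set and 0.19 on the other, Kif23, the motor that joins Racgap1 in centralspindlin, by 0.02 on its brightest plain probe set and by 0.14 and -0.72 on dimmer ones, Prc1, the crosslinker of the central spindle, by 0.10, Anln, which encodes the contractile ring protein anillin, by 0.06 and Kif20a, a motor of the central spindle, by 0.25. None of these passed.

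The general markers of dividing cells did not differ detectably. Mki67, which encodes the Ki-67 protein that coats mitotic chromosomes, read 14.79, 14.85, 14.67 and 14.66 on menin-deficient arrays and 14.78, 14.60, 15.02 and 14.84 on control arrays. The groups overlapped, and the difference was -0.06 (95% interval -0.29 to 0.16, adjusted p = 0.698). Top2a, encoding the topoisomerase that untangles chromosomes, averaged 14.90 ± 0.07 and 14.87 ± 0.12 in menin-deficient and control arrays (SD, n = 4 each). Its difference was 0.03 (95% interval -0.13 to 0.19).

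**Figure D2:**
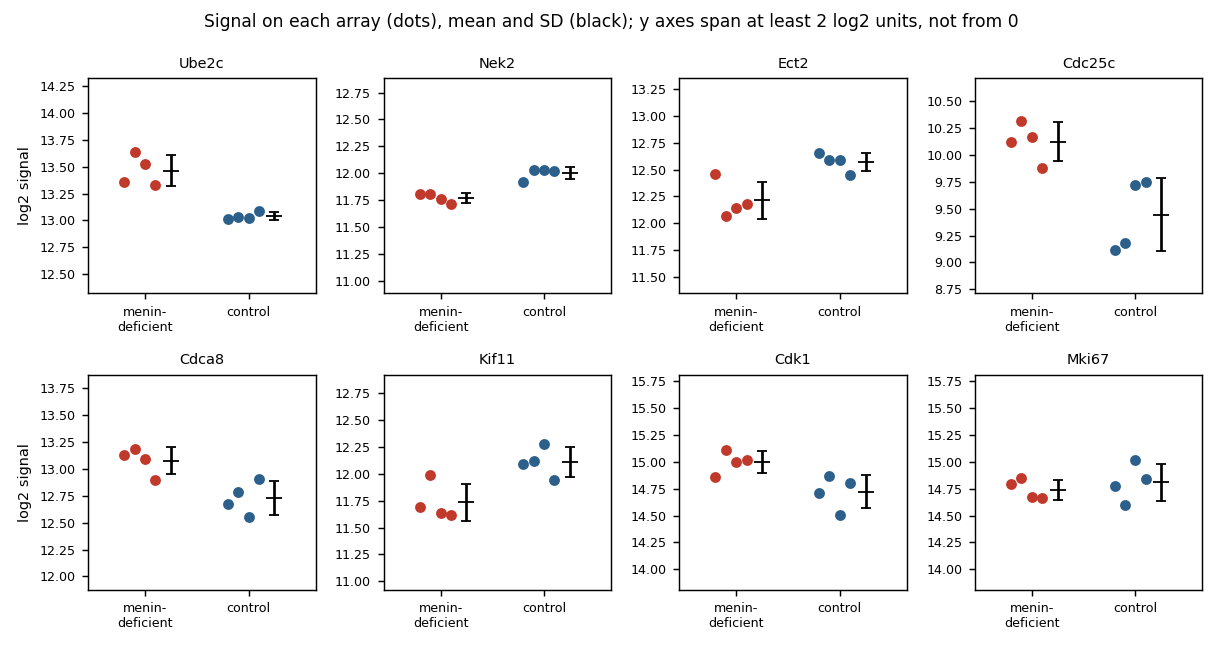
Log2 signal (vertical axes, not from 0) of the plain probe sets of 8 mitotic genes on each menin-deficient (red) and control (blue) array, with the group mean and SD in black. Ube2c, Nek2 and Cdc25c have groups that do not overlap, while Ect2, Cdca8, Kif11, Cdk1 and Mki67 overlap.

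The median level of the mitotic genes differed between arrays, also within a group. For the brightest plain probe sets of 38 members, menin-deficient replicate 2 held the highest of the 8 values for 25 genes, and control replicate 2 held the lowest for 15. Such counts are not given here for other genes, so they cannot be called particular to mitotic genes. The median deviation of these genes from their mean over all arrays was -0.02, 0.23, 0.03 and -0.06 on menin-deficient replicates 1 to 4 and -0.12, -0.14, 0.05 and 0.03 on control replicates 1 to 4. Taken from the mean of both groups, it includes any difference between them. Over all tested probe sets the same deviation stayed between -0.06 and 0.03 on the 8 arrays. That set is dimmer, with 10439 plain probe sets of a mean under 8. Equally bright probe sets of other genes were not compared by array. The median difference of the 38 members, 0.10 with all arrays, was 0.06 with menin-deficient replicate 2 left out and 0.05 with control replicate 2 left out. The SD within a group had a median of 0.15 over these genes in menin-deficient and 0.15 in control arrays.

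**Figure D3:**
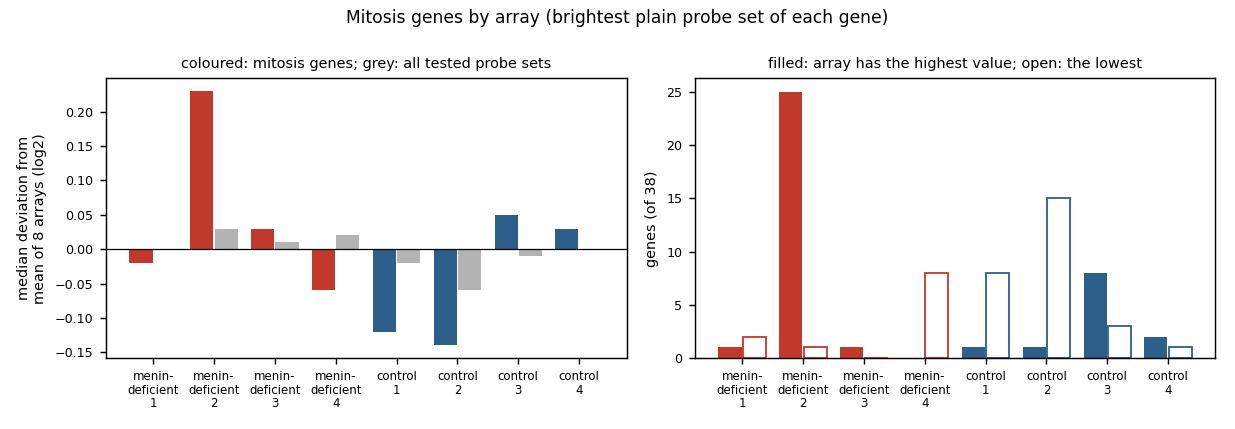
Left, median deviation (log2) of 38 mitotic genes (coloured bars) and of all tested probe sets (grey) from their mean over 8 arrays, by array. Right, number of the 38 genes for which an array held the highest (filled) or the lowest (open) value, showing menin-deficient replicate 2 highest for 25 genes and control replicate 2 lowest for 15. Such counts are not given for other genes.

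Probe sets of the same mitotic gene often differed in sign. Of 25 members with several tested probe sets, 20 had differences of both signs. Differences near 0 can give both signs without a real disagreement, such as -0.01 and 0.06 in Anln or -0.04 and 0.03 in Bub1b. The share over all genes with several probe sets is not given here, so the count says nothing particular about mitotic genes. The widest span was in Kif2c, a kinesin that takes microtubules apart at the kinetochore. Its brightest probe set, an _x_at, read 13.12, 12.89, 13.35 and 12.97 on menin-deficient arrays, against 13.47, 13.79, 13.87 and 13.68 on control arrays, a difference of -0.62 (SE 0.13, adjusted p = 0.0223). Every menin-deficient array was below every control array. That call was lost without control replicate 2 or 4 or menin-deficient replicate 2 or 4 (adjusted p = 0.0513 to 0.0618).

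A plain Kif2c probe set read 3.72, 3.32, 3.47 and 3.35 on menin-deficient arrays, against 4.84, 4.87, 4.83 and 4.70 on control arrays. Its difference of -1.34 (2.54-fold, SE 0.10, adjusted p = 0.00117) was the largest of all members, at a level not far above the lowest value of the table, 2.08. Its groups were far apart, and the call was kept with any array left out. Another plain probe set, at 8.02, 8.66, 8.08 and 7.83 on menin-deficient arrays and 7.82, 7.42, 8.06 and 8.35 on control arrays, differed by 0.24 (adjusted p = 0.566). The fourth, also dim, read 4.80 to 2 decimals on 7 of 8 arrays and 4.71 on control replicate 3, and differed by 0.02. Both called probe sets of Kif2c fell, and the others differed little and were not called. In the fit with probe sets averaged per gene, Kif2c differed by -0.43 (limma adjusted p = 0.00761).

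Cdc20, the activator of the anaphase-promoting complex, showed opposite differences on 2 bright probe sets. The _x_at probe set read 14.49, 14.54, 14.52 and 14.36 on menin-deficient arrays and 14.74, 14.72, 14.76 and 14.82 on control arrays, a fall of 0.28 on the log2 scale (difference -0.28, SE 0.05, adjusted p = 0.0155). The plain probe set read 14.30, 14.52, 14.32 and 14.24 on menin-deficient arrays and 14.16, 14.15, 13.94 and 14.15 on control arrays. Both sets of groups stayed apart, in opposite directions, and the plain difference of 0.24 (SE 0.08) did not pass (adjusted p = 0.0895). A dimmer _x_at probe set differed by -0.09.

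**Figure D4:**
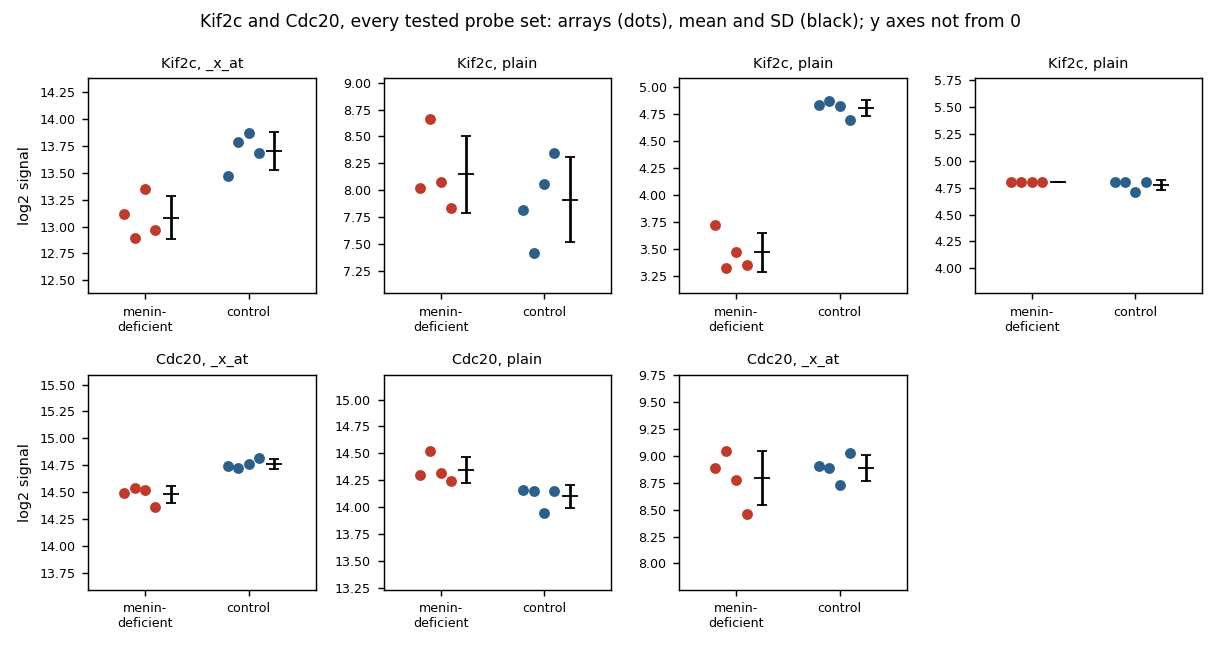
Log2 signal (vertical axes, not from 0) of all 4 tested Kif2c and all 3 tested Cdc20 probe sets on each menin-deficient (red) and control (blue) array, with mean and SD in black. The bright _x_at and a dim plain probe set of Kif2c are lower in menin-deficient arrays and another plain one is not, and the bright _x_at and plain probe sets of Cdc20 differ in opposite directions.

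The disagreement between kinds of probe set was tested for the 11 members that had both, as the mean of _x_at and _s_at probe sets minus the mean of plain ones on each array. In Cdc20 this gap was lower by 0.43 in menin-deficient arrays (-2.61, -2.72, -2.67 and -2.82, against -2.34, -2.35, -2.19 and -2.23 in control arrays), with groups that did not overlap (exact permutation p = 0.0286, two-sided, the smallest that 4 against 4 arrays allow). The gap changed by -0.42 in Cdca8 and by -0.41 in Cdc25c, each with an exact permutation p of 0.0286. Adjusted over the 11 members these came to 0.105. With this few arrays no member could pass the adjustment unless at least 7 reached the smallest p together, so it says nothing of whether these gaps differ. In Kif2c the gap changed by -0.26 (exact permutation p = 0.143). The log2 ratio of the 3′ to the 5′ control probe sets, a measure of RNA and amplification quality, was 1.85 to 2.00 on menin-deficient and 1.83 to 2.26 on control arrays for Gapdh, a difference of -0.15 (exact permutation p = 0.171), and differed by -0.05 for Actb (exact permutation p = 0.457).

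Other genes of G2 and mitosis were counted in the same way. Of 308 tested probe sets of 147 further genes, taken from a list of 159 symbols, 14 rose and 16 fell (9.74%), against 14.2% of all tested probe sets, and their median difference was 0.01. Leaving out control replicate 1 gave 15 calls, menin-deficient replicate 2 gave 13 and menin-deficient replicate 4 gave 18, and the replicate number as a block gave 5. After centring on the median gene 6 were higher and 33 lower. The largest share was in condensin and cohesin, the ring complexes that fold and hold chromatids, where 1 of 54 probe sets rose and 7 fell. That share was 14.8%, close to that of the whole array. Its 8 calls became 1 to 5 when any array other than menin-deficient replicate 1 was left out, with 1 call without menin-deficient replicate 2 and 2 without control replicate 1.

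Wapl, which releases cohesin from chromosomes, read 10.81, 10.09, 10.56 and 10.64 on menin-deficient arrays, against 11.17, 11.56, 11.51 and 11.50 on control arrays (difference -0.91, adjusted p = 0.0161). All menin-deficient arrays were lower, and its second tested probe set differed by -0.45 (adjusted p = 0.0844). Named after their values were seen, Smc1a, a cohesin subunit, fell by 1.17 on the log2 scale on 1 probe set, but its brightest differed by 0.07. The cohesin subunit Rad21 fell by 0.82 on an _x_at probe set and differed by -0.50 and 0.22 on the others. Smc4, a condensin subunit, fell by 0.43 on 1 of 3 probe sets, with the others at -0.35 and 0.05.

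For the anaphase-promoting complex, 6 of 43 probe sets rose and 0 fell. That share of 14.0% was close to the 14.2% of all tested probe sets (9.34% higher and 4.87% lower). The calls became 2 higher and 4 lower after centring on the median gene. Calls there numbered 3, 2 and 3 when control replicate 1, menin-deficient replicate 2 or menin-deficient replicate 3 was left out, and 0 with the replicate number as a block. Fzr1, encoding the activator Cdh1, averaged 12.61 ± 0.16 in menin-deficient and 11.99 ± 0.20 in control arrays (SD, n = 4 each), 1.54-fold higher (limma adjusted p = 0.0188). Anapc10, a substrate-binding subunit, averaged 12.29 ± 0.06 and 11.76 ± 0.17 in the same order, 1.44-fold higher (limma adjusted p = 0.0124). Fzr1 and Anapc10 also passed after centring on the median gene. The _s_at probe set of Anapc10 differed by 0.30 (adjusted p = 0.057).

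Among other spindle and kinetochore genes the calls went both ways. Pimreg, a mitotic regulator, rose 1.68-fold (adjusted p = 0.0126), Nek6, a mitotic kinase, 1.62-fold (adjusted p = 0.00987) and Zwint, a kinetochore protein, 1.31-fold on 1 of 6 tested probe sets (adjusted p = 0.0123). Incenp, the scaffold of the passenger complex, fell 1.41-fold on an _x_at probe set (14.85 ± 0.05 in menin-deficient and 15.34 ± 0.04 in control arrays, SD, n = 4 each, limma adjusted p = 0.00169) and by 0.63 on the log2 scale on a plain one, while another plain probe set differed by 0.18. Cit, encoding citron kinase of the cleavage furrow, fell 1.97-fold on a dim probe set (adjusted p = 0.00502), with 0.06 and -0.09 on brighter ones. Nek7 and Cenpk fell 1.57-fold and 1.78-fold on dim probe sets, and their brightest differed by -0.06 and 0.06. Of the MuvB and E2F genes, Tfdp1, the E2F partner DP1, rose 1.34-fold (adjusted p = 0.00894) and Lin52, a MuvB subunit, fell 1.49-fold (adjusted p = 0.0138), while its dimmer probe set differed by 0.31 and the mean of both by -0.13 (adjusted p = 0.3).

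**Figure D5:**
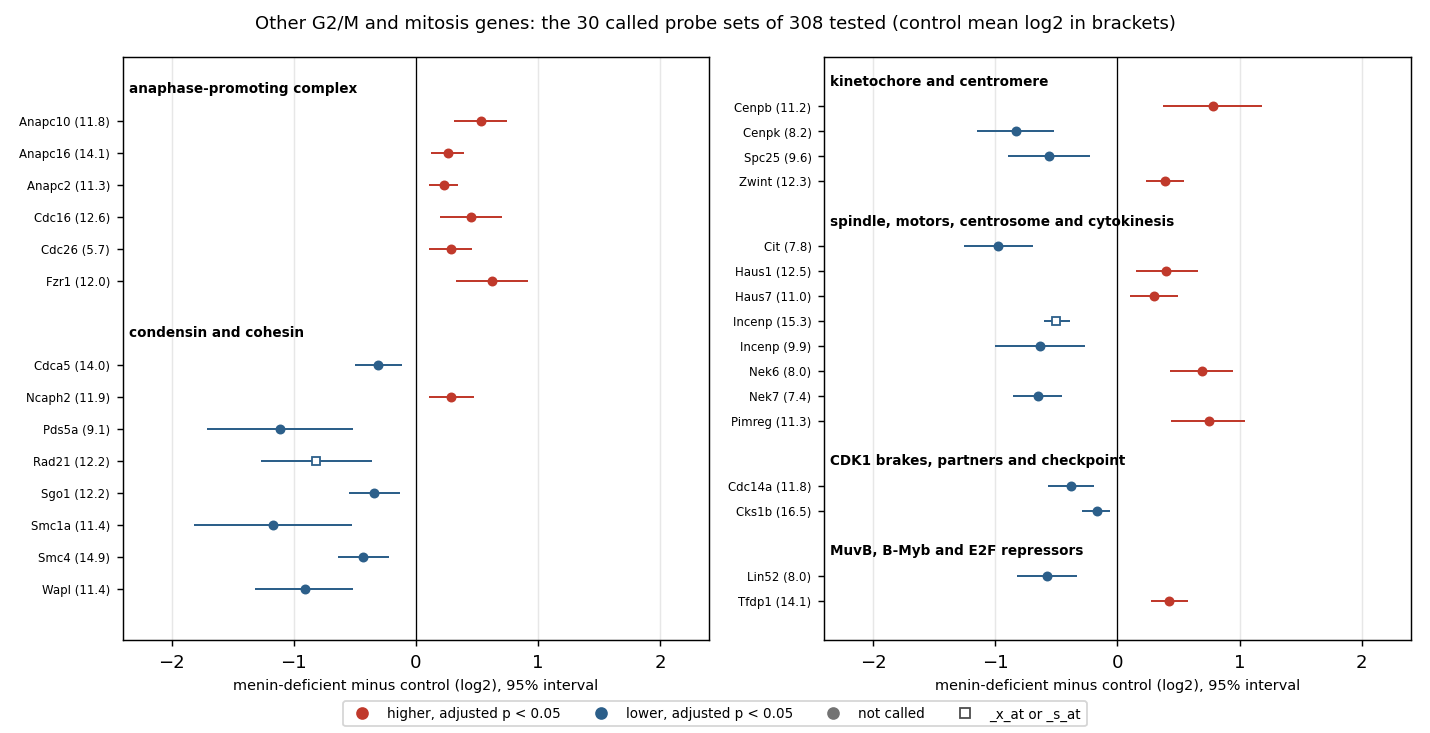
Difference between menin-deficient and control arrays (log2, horizontal axis) with its 95% interval for the 30 called probe sets among 308 of other G2 and mitosis genes, by list, with the control mean in brackets. The 6 called probe sets of the anaphase-promoting complex lie above 0 in the deposited scaling (2 higher and 4 lower were called after centring on the median gene), and 7 of 8 for condensin and cohesin lie below 0. The shares called in these 2 lists, 14.0% and 14.8%, are close to the 14.2% of all tested probe sets.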

How the data were processed

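The deposited table holds log2 values for 8 arrays made by the authors. That scale was judged from the values, 2.08 to 17.4. Per the submitters' processing notes MAS5 and GCRMA were used, and which of them gave these values is not stated there. On each array 36.1% to 36.7% of probe sets stood at the lowest value, which compresses low signals. There were 4 arrays a group, and their number limits the precision of every value.

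Sample titles gave the groups and replicate numbers. A probe set was kept where 4 or more of the 8 arrays had it over their own 40th percentile (26790 in all). Each was tested without covariates by limma 3.58.1 in R 4.3.3 (lmFit, then eBayes), Benjamini-Hochberg adjustment ran over all of them, and calls were made at 0.05. Every adjusted p printed without another fit's name is from there. Per-array gaps were compared by two-sided exact permutation tests. Members, gene lists and tests were chosen with earlier results of these data known. Values on every array are given for each member with a called probe set and for the largest difference on a brightest plain probe set in each role group. Up to 6 rises and 6 falls with the lowest p are named among other genes. The fit was tested on simulated data (200 changed of 26790 probe sets, 4 arrays against 4) and recovered 26.9%, 52.2% and 93.9% of changes of 0.5, 1 and 2, with 12 false calls among 127. The real fit called 3808 probe sets, so its adjustment was less strict than in the simulation. Simulated noise was also independent between probe sets. These rates are therefore not the sensitivity of the reported fit. In all, 23 alternatives were tried. The labels describe biological replicates from separate mice. By Xist and Eif2s3y, 2 menin-deficient and 1 control mice were male. A limma fit with sex as a covariate called 6 member probe sets. In it Ect2 (-0.38, adjusted p = 0.0611) and Cdc25c (0.61, adjusted p = 0.0702) were not called, and Kif11 was (-0.43, adjusted p = 0.0282). Figures were drawn with matplotlib 3.10.9.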

Additional observations from a re-analysis of the deposited data

Results flagged for a closer look

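In 3 of 34 groups of values examined, 1 control array lay far from the remaining 3, and chance flags about 1 in 20 groups. Control replicate 1 was lowest for the plain Nek2 probe set (11.92). Control replicate 3 was lowest for the plain Cdc20 probe set (13.94). Control replicate 3 was also lowest for the Kif2c probe set that read 4.80 to 2 decimals on the other arrays (4.71).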

How the results depend on the processing

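Main counts of calls were 7 member probe sets, 5 plain, 2 _x_at or _s_at, 5 members by their brightest probe set, and 30 other probe sets. Without a filter on dim probe sets they were 4, 3, 1, 3 and 17. At an adjusted p under 0.10 they were 14, 10, 4, 8 and 56. With the replicate number as a block they were 1, 1, 0, 2 and 5, while that fit called 1083 of all probe sets against 3808. Deviations of same-numbered arrays had correlations of -0.05, -0.26, -0.14 and 0.08, and 0 of 8 arrays correlated best with their own number. With 4 arrays a group this cannot decide whether same-numbered arrays were paired, and the sample titles do not say. With probe sets averaged per gene 3 members were called, with the brightest probe set alone 3 plain ones, and without _x_at and _s_at probe sets 4 in all. Leaving out each array in turn gave 4 to 7, 3 to 5, 1 to 2, 3 to 5 and 13 to 27. The count of gaps between probe set kinds past the adjustment was 0, which these array numbers nearly fix and which shows no stability. The causes of these shifts were not tested. Scaling moved the split of called member probe sets: 2 higher and 5 lower as deposited, 1 and 6 after quantile normalization, 2 and 7 after centring on the median tested probe set, and 0 and 10 after centring on the median gene. By the brightest probe set of each gene the split was 1 and 4 in the first 3 of these and 1 and 5 after centring on the median gene. That centring was added after seeing the data, as were all alternatives for the other genes. Averaged per gene, Ttk and Cenpe changed sign (-0.05 and -0.11), and Mki67 ranged from -0.13 to 0.01 with an array left out. Dim signals near the lowest value limit what folds there mean.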
